A study of Rattus norvegicus with 12 samples.

Results

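Neurotrophins are secreted growth factors that keep neurons alive during development and adjust their connections in the adult brain. Each is made as a longer precursor, the mature form of which binds a Trk receptor tyrosine kinase, whereas the precursor binds the p75 receptor together with sortilin. In the hypothalamus, brain-derived neurotrophic factor (BDNF) and its receptor TrkB restrain food intake, and the ventromedial nucleus (VMN), which borders the arcuate nucleus (ARC), is known as a main site of Bdnf expression. The genes described here are the ligands Bdnf and Ntf3, which encodes neurotrophin 3, the receptors Ntrk2 (TrkB), Ntrk3 (TrkC) and Ngfr (p75), and the sorting receptor Sort1 (sortilin). They were chosen by name, as probe sets whose platform annotation gives exactly 1 gene symbol, and all 6 were found among 14217 named genes, on 12 of 31042 probe sets. Each probe set combines several short probes to the same transcript. Ntrk2 had 5, Bdnf and Sort1 had 2 each, and Ntf3, Ntrk3 and Ngfr had 1 each. The main probe set of a gene is the one with the highest mean signal over all arrays.

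The arrays measured RNA from laser-captured ARC of male Wistar rats aged 3 months, 6 control and 6 recuperated, 1 animal per array, and the study counts litters as n. Control animals were offspring of control dams. The mothers of recuperated animals ate 8% protein in pregnancy, and control dams nursed these pups in groups set up on postnatal day 3. Recuperated litters were reduced to fewer pups than control litters and to males alone, where control litters kept both sexes, so that maternal diet, litter size and litter sex cannot be told apart. All animals ate standard chow after weaning, and all RNA was amplified before hybridisation to Affymetrix rat arrays. Values are log2 expression as deposited, made with RMA, and fold changes were fitted after subtraction of the median of each array. The number of arrays limits the precision.

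Recuperated array 4 stood apart in markers of regions and of cell types. The VMN list, with 6 of 8 genes measured, averaged 3.58 above the array median (log2) on that array against 0.34 to 1.84 elsewhere, and 6 of the 6 were at their highest. The mean of 9 measured ARC genes was 0.56 there, between 2.57 and 2.86 on the other recuperated arrays and between 2.80 and 2.97 in controls. Nr5a1, the factor that defines the VMN, read 8.88 on that array and 3.36 to 5.97 elsewhere, and Npy, the ARC appetite peptide gene, read 7.19 and 10.60 to 11.75 elsewhere. The paper's check of the dissection reports Nr5a1 as not detected in the captured ARC, with data not shown. Here Nr5a1 exceeded the array median on recuperated array 4 alone. Control and recuperated arrays overlapped in all 11 marker lists, but the ARC list averaged lower in recuperated arrays, at 2.35 against 2.86 (exact permutation test, p = 0.013; adjusted p = 0.143 over 11 lists), and by -0.16 without recuperated array 4 (exact permutation test, p = 0.026). Without that array, a setting added after seeing the data, the oligodendrocyte list averaged lower by -0.19 (exact permutation test, p = 0.0216), and in the other 9 lists the exact p was at least 0.26. The p values without recuperated array 4 were not adjusted over the 11 lists. Recuperated array 4 was also outside all other arrays for tanycytes and ependyma (0.43 against 1.87 to 2.69), microglia (0.68 against 1.08 to 1.59) and oligodendrocytes (3.62 against 2.98 to 3.44). Values without recuperated array 4 are given beside the results it changed. Less signal of a gene in captured tissue can come from fewer cells of a type or less RNA per cell, which cannot be told apart.

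No difference in Bdnf was detected between the groups, and its highest value was on recuperated array 4. Its main probe set read 5.86 ± 0.54 in control and 5.95 ± 0.93 in recuperated arrays (log2, mean ± SD, n = 6 per group). Controls ran from 5.03 through a median of 5.79 to 6.64, and recuperated arrays from 4.75 through 5.92 to 7.55. The recuperated arrays thus held both the highest value of all 12, on array 4, and the lowest, on array 1, and enclosed the control range. Recuperated minus control, the log2 fold change was 0.07 (standard error 0.38), with a 95% interval from -0.74 to 0.87 (exact permutation test, p = 0.894; adjusted p = 0.999 from limma). These arrays therefore leave room for a level from 0.60 to 1.83 times that of controls. Without recuperated array 4 the log2 fold change was -0.25 (standard error 0.28), and its sign also turned without control array 4, at -0.10.

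The dimmer Bdnf probe set gave a tighter comparison. It read 3.61 ± 0.23 in control arrays, from 3.39 through 3.54 to 4.04, and 3.89 ± 0.21 in recuperated arrays, from 3.72 through 3.83 to 4.28. (log2, mean ± SD, n = 6 per group) Recuperated array 6 lay above every control array, and the other recuperated arrays lay within the control range. Its log2 fold change of 0.26 (standard error 0.14) did not pass (exact permutation test, p = 0.0628; adjusted p = 0.999 from limma). Recuperated array 4, at 3.96, was not the highest on this probe set. It lay below the array median on all 12 arrays, and the brighter one lay above it on 2 of 12. Because binding differs from probe set to probe set, this does not decide whether the transcript was present.

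Bdnf is transcribed from several start sites, and neither probe set is assigned to one of them in the annotation used here. The RefSeq promoter table, on the rat build GRCr8, matched 3 of the 6 genes, with 6 starts for Bdnf, 3 for Ntf3 and 1 for Sort1, whereas Ntrk2, Ntrk3 and Ngfr had no entry. The 250 bases before each start were searched on both strands for motifs of factors that act on Bdnf. These were the cyclic AMP response element TGACGTCA, its Bdnf form TCACGTCA, its half-site TGACG, and the E-box CACGTG, which is bound by USF1. Only the window of Bdnf start 4, chr3:116637608-116637857 on the plus strand, held any of them. It holds TCACGTCA, shown in capitals, beginning 38 bases before the start and overlapping a half-site on the other strand. TCACGTCA occurred in 0.351% of 33360 such windows, TGACGTCA in 1.59%, TGACG in 18.2% and CACGTG in 5.61%. A match is a description and not a bound site, and other forms of the E-box were not searched for. The window is shown beside the most upstream of the Ntf3 starts, chr4:160670624-160670873 on the minus strand. This choice was made because Bdnf and Ntf3 are the ligands among the 6 genes and Ntf3 has the smallest limma p of the 6.
Bdnf, start 4: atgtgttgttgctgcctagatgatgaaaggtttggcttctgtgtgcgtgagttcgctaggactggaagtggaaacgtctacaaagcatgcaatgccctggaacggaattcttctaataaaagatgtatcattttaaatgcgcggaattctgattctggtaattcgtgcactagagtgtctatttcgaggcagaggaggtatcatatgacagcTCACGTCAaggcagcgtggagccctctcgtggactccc
Ntf3, start 1: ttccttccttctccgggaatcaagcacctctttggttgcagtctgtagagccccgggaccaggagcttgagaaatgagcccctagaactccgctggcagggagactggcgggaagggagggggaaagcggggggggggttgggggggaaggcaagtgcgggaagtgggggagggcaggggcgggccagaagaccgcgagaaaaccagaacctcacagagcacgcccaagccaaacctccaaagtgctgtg

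The cyclic AMP response element is bound by CREB, and of 6 measured regulators of Bdnf transcription 0 met the study's threshold of 1.3-fold with P under 0.05. The study followed up a gene only where GCOS, RMA and GC-RMA values each met this threshold. Here it was applied to the RMA values alone, with P from limma unless stated, so that counts at it are unlike those of the study. Creb1 itself had a log2 difference of -0.08 with a standard error of 0.28 and Usf1 of 0.01 (standard error 0.20). The member of that list with the smallest p was Crtc1, a CREB coactivator, whose difference was 0.19 with a standard error of 0.18 (exact permutation test, p = 0.359). Mef2c, an activity-regulated factor, followed with 0.13 and a standard error of 0.13 (exact permutation test, p = 0.264). Mef2c had a dimmer probe set at -0.02.

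Ntf3, the ligand that prefers TrkC, was the only one of the 6 genes to meet 1.3-fold with P under 0.05 by limma, as 2.47% of all probe sets did. With the methods' t-test, from which the study took its P, Ntf3 missed that threshold and 0 of the 6 genes met it. It read 4.40 ± 0.42 in control and 3.93 ± 0.39 in recuperated arrays (log2, mean ± SD, n = 6 per group). Controls ran from 4.00 through 4.31 to 5.20, and recuperated arrays from 3.41 through 3.99 to 4.38. Recuperated arrays 4, 5 and 6, at 3.54, 3.84 and 3.41, lay below every control array, and recuperated arrays 1, 2 and 3 lay within the control range. This gave a log2 fold change of -0.49 (standard error 0.22), 1.41-fold lower, with a 95% interval from -0.96 to -0.02. Its P from limma was 0.0415 before adjustment, but the difference missed the threshold after adjustment (limma, adjusted p = 0.999) and in the exact permutation test (p = 0.0671). Control array 2, at 5.20, stood apart from the other controls, which reached 4.39 at most, and without it the log2 fold change was -0.33. The threshold was also missed on leaving out array 3 or 4 of the controls, or array 4, 5 or 6 of the recuperated group, with P from limma between 0.053 and 0.102 in these 6 cases. Ntf3 lay below the array median on all 12 arrays.

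At this threshold 1 of the 12 probe sets passed, beside 2.47% of all 31042 (1.27% in the lower direction). By limma 0 of the 12 passed after adjustment, beside 0% of all, and at an unadjusted P under 0.05 it was 1, beside 3.45% of all. The groups did not overlap on 0 of the 12 probe sets, beside 0.119% of all. The median log2 fold change was 0.00 over the 12 and -0.03 over all probe sets, and 6 of the 12 were positive. Ntf3 had a Spearman rho of 0.69 and a Pearson r of 0.51 with the ARC marker list over the 12 arrays (permutation tests, p = 0.0164 and p = 0.126; adjusted p = 0.191 and 0.411 over 66 relations), and r was 0.62 without the 2 arrays farthest from the median of that list. Of the 9 ARC genes, 6 exceeded the array median on 6 or more arrays. The main probe set of the defining peptide gene Pomc exceeded it on 0. The paper reports high Pomc expression in the captured ARC by Taqman RT-PCR, with data not shown. A dim probe set does not decide whether a transcript was present. Bdnf and Ntrk3 ran against the same list, with r = -0.75 and r = -0.72 (rho = -0.57 and -0.39; permutation tests, p = 0.0117 and p = 0.0206 for r, p = 0.0559 and p = 0.206 for rho; adjusted p = 0.134 and 0.163 for r, 0.335 and 0.601 for rho). Without recuperated array 4 these r were -0.36 and -0.25, and without recuperated array 2 as well they were -0.31 and -0.20. The part of ARC content in the Ntf3 values was not tested.

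**Figure D1:**
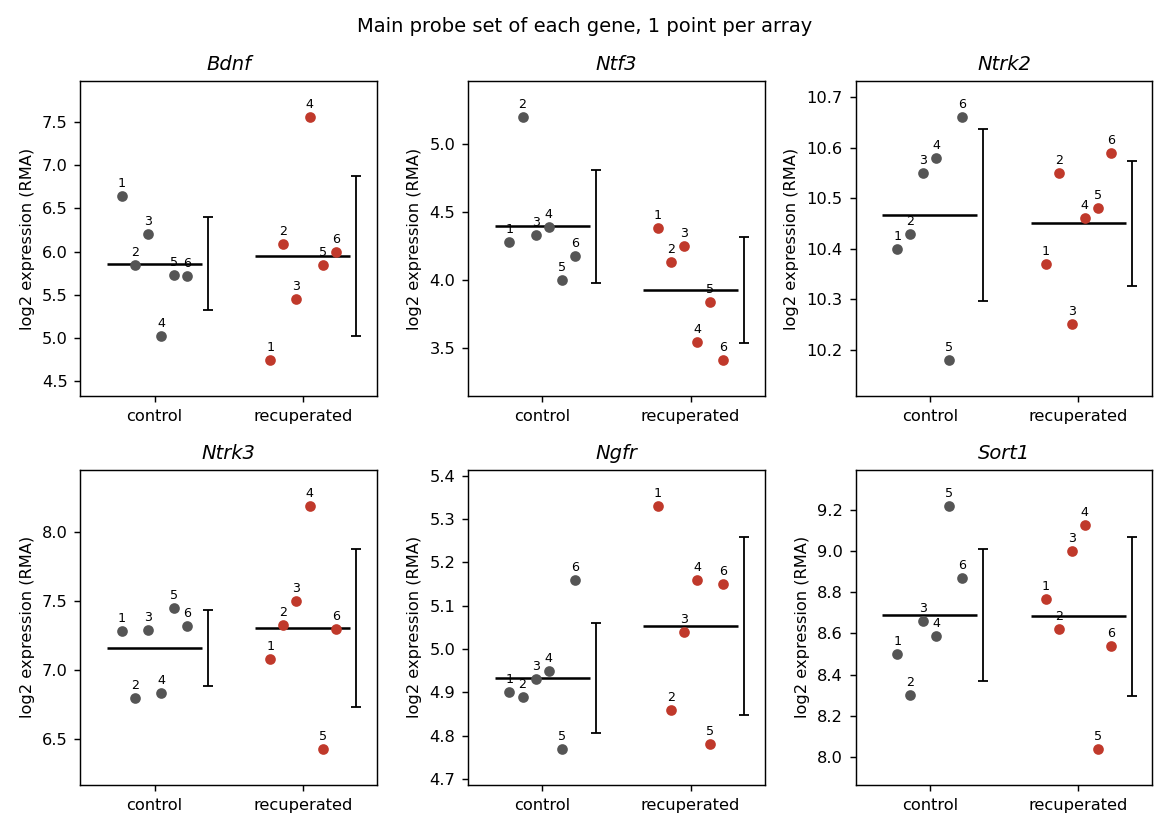
Log2 expression (RMA) of the main probe set of each of the 6 genes on each array (grey for control, red for recuperated), numbered by array within its group; horizontal lines are group means and bars are SD, and each panel has its own scale. Recuperated array 4 is highest for Bdnf (7.55) and Ntrk3 (8.19), and recuperated arrays 4, 5 and 6 lie below every control array for Ntf3.

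Ntrk2, which encodes the BDNF receptor TrkB in a full-length form and in truncated forms abundant in astrocytes, had the smallest pooled within-group SD of the 6 genes, at 0.156, beside 0.178 for Ngfr, which had the smaller SD in controls. Its main probe set read 10.47 ± 0.17 in control and 10.45 ± 0.12 in recuperated arrays (log2, mean ± SD, n = 6 per group). Controls ran from 10.18 through 10.49 to 10.66, and recuperated arrays, all within that range, from 10.25 through 10.47 to 10.59. Between groups it differed by -0.04 on the log2 scale (standard error 0.12; exact permutation test, p = 0.703), and its 95% interval allowed 0.82 to 1.16 times the control level. On this probe set, that interval excludes a 1.3-fold change, the study's fold cut-off, in either direction. The same held for the second brightest Ntrk2 probe set, at 0.83 to 1.17 times the control level. It did not hold for the others, at 0.755 to 1.122, 0.793 to 1.306 and 0.723 to 2.478 in order of falling signal.

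None of the other 4 Ntrk2 probe sets met the threshold. The second brightest averaged 10.37 in both groups, with a log2 difference of -0.02 and a standard error of 0.12. The next averaged 10.37 and 10.27, at -0.12 (standard error 0.13), with recuperated arrays 1 and 3 below every control array. The dimmest but 1 read 9.43 ± 0.33 in control and 9.48 ± 0.26 in recuperated arrays (log2, mean ± SD, n = 6 per group), with its highest value, 9.99, on recuperated array 4, and its log2 fold change went from 0.03 to -0.08 without that array. The dimmest read 3.72 ± 0.52 and 4.16 ± 1.05 (mean ± SD, n = 6 per group), and only recuperated arrays 5 and 6, at 5.60 and 5.40, lay above the controls, which ran from 2.96 to 4.38. Its log2 fold change of 0.42 had a standard error of 0.41 (exact permutation test, p = 0.409), and it lay below the array median on all 12 arrays, where the other 4 lay above it. Across the 12 arrays, 0 of 12 pairs of probe sets of 1 gene correlated after adjustment. The highest was r = 0.61 (rho = 0.36; permutation tests, p = 0.034 and p = 0.248; adjusted p = 0.407 and 0.614) for the brightest Ntrk2 pair, and r was 0.33 without the 2 arrays farthest from the median.

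Ntrk3, the receptor for neurotrophin 3, varied more in recuperated than in control arrays, with means that lay close together. It read 7.16 ± 0.28 in control arrays, from 6.80 through 7.29 to 7.45, and 7.31 ± 0.57 in recuperated arrays, from 6.43 through 7.32 to 8.19. (log2, mean ± SD, n = 6 per group) The highest value was on recuperated array 4 and the lowest on recuperated array 5, with 1 further recuperated array, array 3 at 7.50, above the controls. Its log2 fold change was 0.12 (standard error 0.23; 95% interval from -0.37 to 0.62; exact permutation test, p = 0.643). Without recuperated array 4 it was -0.05 (standard error 0.19).

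Ngfr, which encodes the p75 receptor and is found on few cells of the adult forebrain, read below the array median on all 12 arrays. It was 4.93 ± 0.13 in control arrays, from 4.77 through 4.92 to 5.16, and 5.05 ± 0.20 in recuperated arrays, from 4.78 through 5.10 to 5.33. (log2, mean ± SD, n = 6 per group) Recuperated array 1 was the only one above the controls. The groups differed by 0.10 on the log2 scale (standard error 0.13; 95% interval from -0.17 to 0.37; exact permutation test, p = 0.361), with an upper 95% limit of 1.29 times the control level. Because binding differs from probe set to probe set, a level below the median does not decide whether the transcript was present. The interval therefore describes the signal of this probe set alone.

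Sort1, the sorting receptor that carries BDNF within the cell and joins p75 at the surface, had group means that differed by less than their error. The main probe set read 8.69 ± 0.32 in control arrays, from 8.30 through 8.63 to 9.22, and 8.68 ± 0.39 in recuperated arrays, from 8.04 through 8.70 to 9.13. (log2, mean ± SD, n = 6 per group) Only recuperated array 5 lay outside the control range. On the log2 scale the difference was -0.03 (standard error 0.19; exact permutation test, p = 0.903). The dimmer probe set read 8.36 ± 0.51 and 8.19 ± 0.77 (mean ± SD, n = 6 per group), with a difference of -0.19 whose standard error was 0.32 (exact permutation test, p = 0.632). Recuperated array 5 was again the lowest, at 6.90, and recuperated array 1 the highest, at 9.14.

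**Figure D2:**
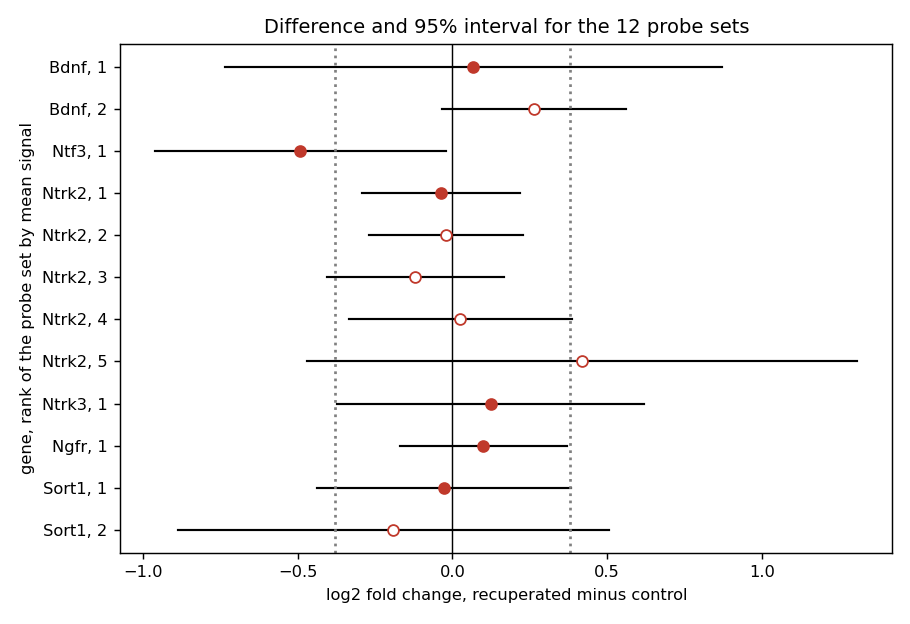
Log2 fold change, recuperated minus control, of the 12 probe sets with 95% intervals from limma, labelled by gene and by rank of mean signal, filled for the main probe set and open for the others; dotted lines mark 1.3-fold. The interval of Ntf3 alone lies on 1 side of 0, and those of the 3 brightest Ntrk2 probe sets are among the narrowest.

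The genes were then compared across animals. Of 15 pairs of main probe sets, Ntrk3 and Sort1 were the only pair that correlated after adjustment, with r = 0.81 and rho = 0.83 (permutation tests, p = 0.00147 and p = 0.00123; adjusted p = 0.0221 and 0.0185). Within control arrays r was 0.74 and within recuperated arrays 0.89, and r was 0.80 without recuperated array 4. Without recuperated arrays 4 and 5, the 2 farthest from the median of Ntrk3, it was 0.66. Recuperated array 5 was lowest for both genes. Both also followed a list of oligodendrocyte precursor markers, of which 3 of 4 were measured, 3 of them above the median of 6 or more arrays, with r = 0.63 for Ntrk3 and r = 0.78 for Sort1 (rho = 0.64 and 0.78; permutation tests, p = 0.0287 and p = 0.00253 for r, and p = 0.029 and p = 0.00459 for rho), although neither passed adjustment over 66 relations (adjusted p = 0.19 and 0.0737 for r, 0.233 and 0.152 for rho). Without recuperated array 5 and control array 5, the farthest from the median of that list, r was 0.39 and 0.53. The list ran from 1.88 to 2.53 above the array median in control and from 1.59 to 2.42 in recuperated arrays, and its part in the relation was not tested. All Sort1 values in this paragraph come from its main probe set. The dimmer Sort1 probe set followed the main one weakly, with r = 0.37 and rho = 0.28 (permutation tests, p = 0.238 and p = 0.381; adjusted p = 0.614 for both). Without control array 5 and recuperated array 5, r between them was 0.04. The relation of the dimmer probe set with Ntrk3 was not tested.

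Bdnf followed the VMN list, with r = 0.80 and rho = 0.68 over the 12 arrays (permutation tests, p = 0.00335 and p = 0.0183; adjusted p = 0.0737 and 0.191). The relation rested on few arrays, as r was 0.52 without recuperated array 4 and 0.26 when control array 1 was left out too. Control array 1 had the second highest level of both, at 1.84 for the list and 6.64 for Bdnf. Ntrk3 had r = 0.70 and rho = 0.39 with the same list (permutation tests, p = 0.0223 and p = 0.213; adjusted p = 0.163 and 0.601), and r was 0.27 without recuperated array 4. Bdnf and Ntrk3 were thus both at their highest in the animal with the highest VMN markers. Without that animal r with the list was 0.52 and 0.27, and without control array 1 as well it was 0.26 and 0.24. The part of VMN content in the Bdnf and Ntrk3 values was not tested.

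**Figure D3:**
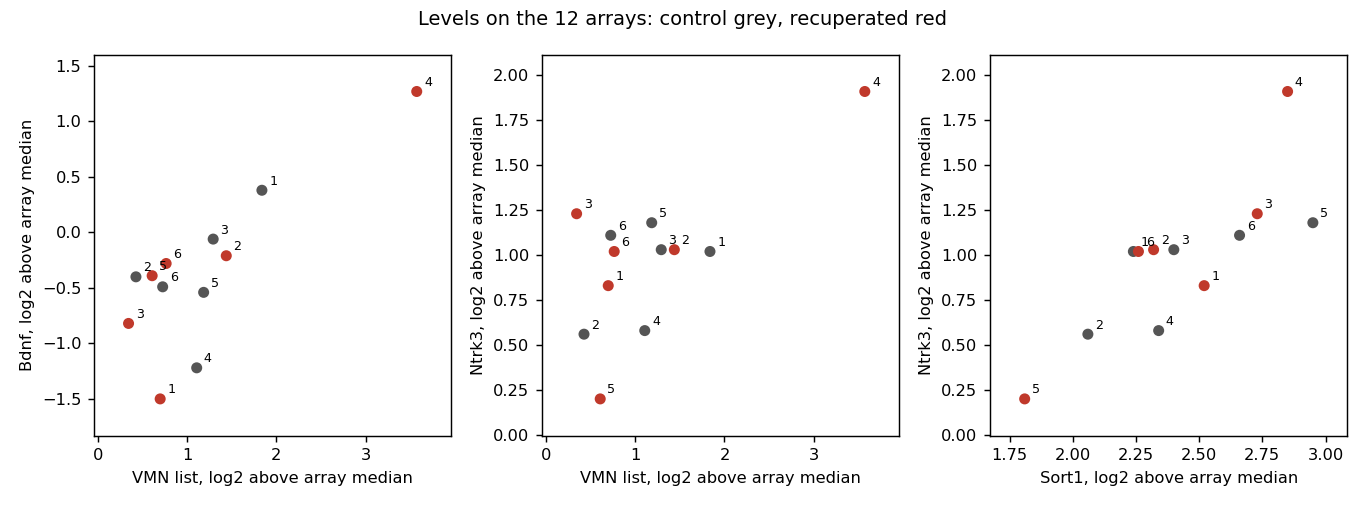
Levels above the array median (log2) on the 12 arrays (grey for control, red for recuperated), numbered by array: Bdnf and Ntrk3 against the mean of the VMN list, and Ntrk3 against Sort1. Recuperated array 4 lies alone at 3.58 on the VMN axis, whereas the main probe sets of Ntrk3 and Sort1 rise together over all arrays (r = 0.81).

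Genes whose levels ran most closely with each of the 6 were taken from 9045 or 9046 genes brighter than the array median on 6 or more arrays, as the 3 with the highest Pearson r over the 12 arrays. As these are the highest of many, no p is given. For Bdnf they were Pde1a (r = 0.96, rho = 0.97), a calcium-dependent phosphodiesterase gene, Lmbr1 (r = 0.95, rho = 0.94) and Rapgef2 (r = 0.91, rho = 0.92), an exchange factor for Rap GTPases. Without recuperated arrays 4 and 1, the farthest from the median of Bdnf, r was 0.86, 0.94 and 0.82. For Ntrk3 they were Smap1 (r = 0.97, rho = 0.88), Dip2a (r = 0.96, rho = 0.89) and Klhdc8a (r = 0.94, rho = 0.85), with r of 0.92, 0.95 and 0.79 without recuperated arrays 4 and 5. Without recuperated array 4 alone, r was between 0.88 and 0.94 for these 6 genes.

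For Sort1 the closest were Mtx1 (r = 0.93, rho = 0.89), a mitochondrial import gene, Efna5 (r = 0.90, rho = 0.89), an ephrin ligand gene, and Nat8l (r = 0.89, rho = 0.83), which makes N-acetylaspartate. For Ntf3 they were Macroh2a1, Klc4 and R3hcc1, each with r = 0.84 (rho = 0.89, 0.79 and 0.86), and R3hcc1 itself had a log2 difference of -0.37 with a standard error of 0.17, short of 1.3-fold. For Ntrk2 they were Tmem11 (r = 0.88, rho = 0.90), Tent2 (r = 0.87, rho = 0.75) and Rac3 (r = 0.87, rho = 0.72), and for Ngfr they were Mcm3ap (r = 0.90, rho = 0.90), Ube3b (r = 0.86, rho = 0.87) and Traf3 (r = 0.84, rho = 0.80). Without the 2 arrays farthest from the median of each gene, r lay between 0.66 and 0.88 for these 12 genes.

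The rest of the pathway was read from 7 lists of 109 other genes, of which 89 had a probe set with that symbol alone. Of the 89, 1 met 1.3-fold with P under 0.05 in the higher direction and 0 in the lower, beside 1.2% and 1.27% of all probe sets, and 0 passed limma after adjustment, with 3 at an unadjusted P under 0.05, beside 3.45% of all probe sets. The median log2 fold change was -0.01, with 44 positive and 45 negative. Of the 89, 67 exceeded the array median on 6 or more arrays. The gene that passed was Sh2b3 (Lnk), an adaptor that binds activated Trk receptors and other kinases, among 23 measured Trk adaptors. It read 6.52 ± 0.38 in control arrays, from 6.09 through 6.44 to 7.14, and 6.93 ± 0.23 in recuperated arrays, from 6.62 through 6.92 to 7.24. (log2, mean ± SD, n = 6 per group) The groups overlapped, with 1 recuperated array above all controls, at a log2 fold change of 0.40 (standard error 0.18), 1.31-fold (exact permutation test, p = 0.0584; adjusted p = 0.999 from limma). It met the threshold in 4 of the 12 cases in which 1 array was left out, and missed it on leaving out array 1, 2, 3 or 6 of the controls, or array 2, 4, 5 or 6 of the recuperated group, at log2 fold changes from 0.31 to 0.40. With the methods' t-test Sh2b3 missed the threshold too, so that 0 of the 89 genes met it in the higher direction. Its relative Sh2b2 differed by -0.35 with a standard error of 0.19 (exact permutation test, p = 0.106), and exceeded the array median on 0 arrays.

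Among the remaining ligands and receptors, 7 were measured. Ntf4, the other TrkB ligand, read 4.27 ± 0.29 in control and 4.03 ± 0.09 in recuperated arrays (log2, mean ± SD, n = 6 per group), a difference of -0.26 with a standard error of 0.14 (exact permutation test, p = 0.0455; limma, adjusted p = 0.999). Its recuperated arrays lay close together, from 3.91 to 4.12, with 2 below every control array, and the controls ran from 4.01 to 4.75. Rtn4r, the Nogo receptor that pairs with p75, differed by -0.36 with a standard error of 0.16 (exact permutation test, p = 0.0476), short of 1.3-fold. Its 2 dimmer probe sets were at 0.03 and -0.20. Sorcs1, of the sortilin family, differed by -0.50 with a standard error of 0.26 (exact permutation test, p = 0.119). It met the threshold without control array 2 or recuperated array 2, and Rtn4r did so in 4 of the 12 cases in which 1 array was left out. The median of this list was -0.20, with 5 of 7 negative, and 0 of the 7 met the threshold. Ntf4 and the main Rtn4r probe set exceeded the array median on 0 arrays, and Sorcs1 on 1.

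The genes that sort and cut the precursors gave a median of -0.06 over 12 measured members. Their smallest P values were those of the protease gene Pcsk6, at -0.26 (standard error 0.15), and of Plat, tissue plasminogen activator, at -0.22 (standard error 0.13; exact permutation test, p = 0.0952), for which 4 recuperated arrays lay below every control array. Pcsk6 exceeded the array median on 1 array. The 15 measured genes of Ras, MAP kinase and PI3 kinase signalling ran from -0.20 to 0.28 around a median of 0.00, with Camk4 at 0.17 (standard error 0.12) and Mapk7 at -0.15 (standard error 0.15). The 15 measured p75 effectors ran from -0.29 to 0.23 around -0.01, with Mapk8 and Rela each at 0.23 (standard error 0.17 and 0.18). In these 3 lists 0 genes met the threshold.

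Of 11 measured response genes, which neurons switch on after Trk or other signals, 0 met the threshold, and their median was 0.08. Junb, an early transcription factor gene, had the smallest P of all 89 genes, at 5.60 ± 0.10 in control and 5.29 ± 0.19 in recuperated arrays (log2, mean ± SD, n = 6 per group). Recuperated arrays ran from 5.05 through 5.28 to 5.51 and controls from 5.42 through 5.61 to 5.72, and 4 recuperated arrays lay below every control array. Junb exceeded the array median on 0 arrays. Its log2 fold change of -0.33, with a standard error of 0.12 (exact permutation test, p = 0.00649), was 1.26-fold lower, short of 1.3-fold, and did not pass adjustment (adjusted p = 0.999 from limma). Dusp6, which limits ERK signalling, differed by 0.27 with a standard error of 0.19 (exact permutation test, p = 0.206) and had its lowest value on recuperated array 4, and without that array it met the threshold at 0.44 (standard error 0.14, P from limma 0.00637). Its dimmest probe set was at -0.19. The Trk adaptor gene Irs1, highest on the same array, went from -0.71 to -0.96 without it (standard error 0.34, P from limma 0.0144), and also met the threshold without recuperated array 1.

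**Figure D4:**
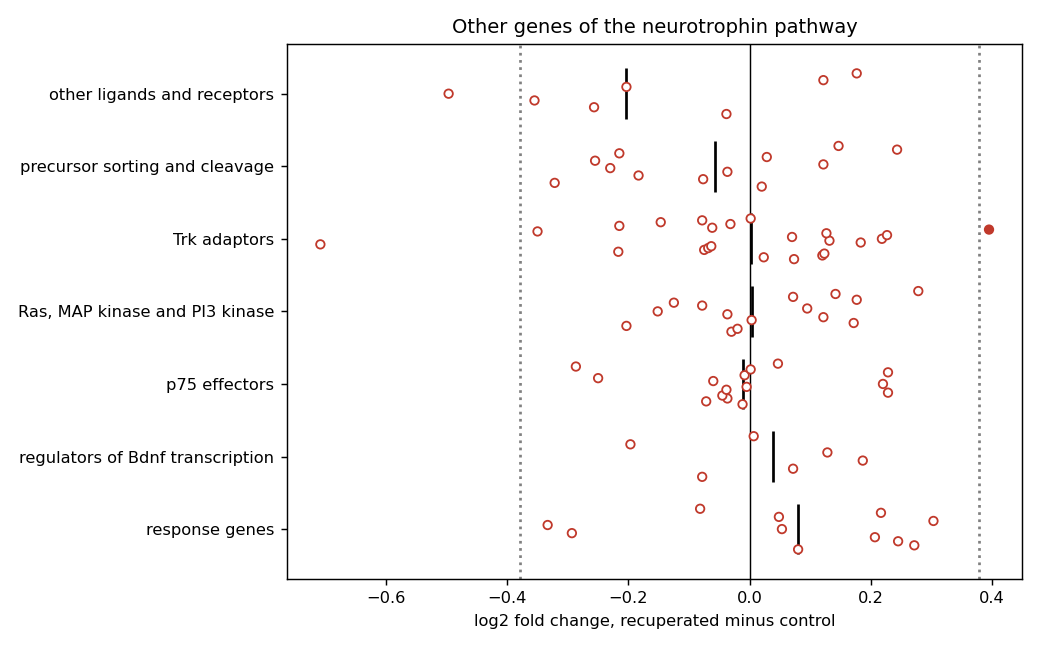
Log2 fold change, recuperated minus control, of 89 other genes of the neurotrophin pathway in 7 lists, 1 point per gene (main probe set), with vertical bars for list medians and dotted lines at 1.3-fold. The filled point is Sh2b3 at 0.40, the only gene with 1.3-fold and P under 0.05 from limma; Irs1 at -0.71 and Sorcs1 at -0.50 pass the fold but not P, although each met both on leaving out 1 of certain arrays.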

How the data were processed

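The authors deposited log2 expression values made with RMA (background correction, quantile normalization and median polish), 1 array per animal, not pooled. For this step Affymetrix Expression Console is given by the submitters' processing notes and GeneSpring GX by the paper's methods, and a genome build is not given in the sources used here. From these values, 57 array control probe sets were set aside and the median of each array was subtracted. The comparison of groups used limma 3.58.1 (lmFit, eBayes; R 4.3.3), adjusted by Benjamini-Hochberg over 31042 probe sets, and, for single probe sets and list levels, an exact permutation test, two-sided over 924 arrangements, whose smallest p is 0.00216. The list tests without recuperated array 4 were exact too, over fewer arrangements, with the two-sided p taken from the smaller tail, so that this smallest p does not apply to them. Correlations used 100000 permutations. The fit was tested on simulated data with known log2 changes, 50 of each size. At an adjusted p under 0.05 it recovered 4 changes of 0.5, 35 of 1.0, 49 of 2.0 and 50 of 3.0, with 5 false calls. Most changes of 0.5 were thus missed, so a high adjusted p does not show that the groups were equal. The simulated noise was independent between probe sets, and all sizes of change were planted in the same simulated arrays. Recovery of a single change in the real arrays, where recuperated array 4 stood apart, was not tested. Alternatives were to keep the medians, to normalize by quantiles, to weight arrays by quality, to drop dim probe sets, to use the methods' t-test, to block by animal number, to average the probe sets of each gene, to take folds from linear means, and to leave out each array. Tables used pandas 2.3.3, scipy 1.17.1 and numpy 2.4.6 in Python 3.11.15, and plots matplotlib 3.10.9.

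Gene names came from the platform annotation, where 20826 probe sets had 1 symbol, 436 several and 9780 none. The members and lists were chosen with earlier results of these data known. Besides the 6 genes, the text names Ntf4, each pathway gene past the threshold and the 2 with the smallest P per list, the 3 genes closest to each member, and the markers Nr5a1, Adcyap1, Npy and Th. Outside this rule are Pomc, Creb1, Usf1 and Irs1, picked with their values known. Some items of the naming rule are not reported here. No 2 arrays held identical values.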

Additional observations from a re-analysis of the deposited data

Results flagged for a closer look

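In groups of 6 arrays, a value was looked for far from the others of its group by Dixon's test of the gap to the nearest value, which chance gives in about 1 of 20 groups. Of 62 groups examined for the probe sets named here, 7 held such a value. These groups share arrays and include VMN and ARC markers on which recuperated array 4 stood apart. The count therefore cannot be set against 1 of 20. Ntf3 read 5.20 on control array 2, against 4.00 to 4.39 in the other controls. The dimmest but 1 of the Ntrk2 probe sets read 9.99 on recuperated array 4, against 9.23 to 9.47 on the other recuperated arrays. On the same array Dusp6 read 7.79 against 8.65 to 8.92, the VMN gene Adcyap1 10.24 against 6.77 to 7.56, Npy 7.19 against 10.60 to 11.75 and Th, the dopamine synthesis gene, 6.84 against 9.67 to 10.10. Mef2c read 9.40 on recuperated array 1, against 9.71 to 9.86.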

How the results depend on the processing

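In the alternatives that gave a p, 0 of the 6 genes passed after adjustment over all probe sets (adjusted p between 0.937 and 1). The filter on dim probe sets gave no value for Bdnf, Ntf3 or Ngfr, and folds from linear means gave no p. In the alternatives that gave a value, Ntf3 kept its negative and Ngfr its positive sign. With array quality weights Bdnf moved from 0.07 to -0.062 (log2), and with the mean of all its probe sets Ntrk2 moved from -0.04 to 0.054, Bdnf to 0.165 and Sort1 from -0.03 to -0.109. From linear means Bdnf was 0.255 and Ntrk3 went from 0.12 to 0.193. When arrays were left out in turn, the log2 fold change ran from -0.252 to 0.302 for Bdnf, from -0.586 to -0.329 for Ntf3, from -0.098 to 0.01 for Ntrk2, from -0.051 to 0.291 for Ntrk3, from 0.041 to 0.153 for Ngfr and from -0.114 to 0.094 for Sort1. The sign of Sort1 turned when array 5 or 6 of either group was left out. Ntrk2 turned without control array 6 or recuperated array 3, Bdnf without control array 4 or recuperated array 4, and Ntrk3 without recuperated array 4. The cause was not tested. The 1 probe set of the 6 genes at 1.3-fold and P under 0.05, Ntf3, became 0 with the methods' t-test and 0 after the filter on dim probe sets, and ranged from 0 to 1 when arrays were left out. The count of higher pathway genes was 1 and became 0 with the methods' t-test and ranged from 0 to 2 with arrays left out. The count of lower pathway genes was 0, became 3 with array quality weights (Rtn4r, Sh2b2 and Irs1), and ranged from 0 to 4 with arrays left out, the highest without recuperated array 1. With the animal number as a replicate block, the log2 fold changes stayed as they were, the count for the 6 genes stayed at 1, and lower pathway genes went from 0 to 1 (Irs1). The numbers do not show a pairing, as same-numbered arrays had correlations of -0.162 to 0.08 in their deviations from the group means. Scaling moved the median over all probe sets from -0.03 to -0.01 at most.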

Other observations

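Relations between the 6 genes and 11 marker lists, 66 in all, gave 0 that passed adjustment by Pearson or by Spearman. Beside those described, Ntrk3 ran against a list of pars tuberalis and pituitary markers, with r = -0.79 and rho = -0.82 (permutation tests, p = 0.00193 and p = 0.00185; adjusted p = 0.0737 and 0.122), and r was -0.74 without control arrays 2 and 4, the farthest from the median of that list. Of its 5 measured markers 2 exceeded the median of 6 or more arrays, and the list mean ran from -1.86 to 0.54 in control and from -1.93 to -0.02 in recuperated arrays. Bdnf ran against the tanycyte and ependyma list, with r = -0.78 and rho = -0.67 (permutation tests, p = 0.00745 and p = 0.0202; adjusted p = 0.123 and 0.191). Without recuperated array 4 r was -0.43, and without control array 5 too it was -0.58. Ntf3 had rho = 0.71 and r = 0.56 with a list of endothelial and mural cell markers (permutation tests, p = 0.0115 and p = 0.0593; adjusted p = 0.191 and 0.326), and r was 0.40 without recuperated arrays 3 and 6. Ntrk2 showed r = -0.23 and rho = -0.17 with the astrocyte list (permutation tests, p = 0.474 and p = 0.587; adjusted p = 0.762 and 0.777), and r was -0.74 without recuperated array 3 and control array 3, and 8 of the 8 astrocyte genes exceeded the median of 6 or more arrays. Crtc1 had a dimmer probe set that differed by 0.63 on the log2 scale, with a standard error of 0.35.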
